A study of Mus musculus with 12 samples.

Results

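The nuclear genes for the subunits of the mitochondrial respiratory chain and ATP synthase were followed in mouse thymocytes, the developing T cells of the thymus. Members were chosen by symbol from the authors' deposited tables: symbols that begin with Ndufa, Ndufb, Ndufc, Ndufs, Ndufv, Uqcr or Atp5, the cytochrome c oxidase symbols Cox4 to Cox8, Cyc1, and Sdha, Sdhb, Sdhc and Sdhd, without pseudogene rows and assembly factors. This gave 79 of 55335 gene rows: 37 genes of complex I, 4 of complex II, 9 of complex III, 12 of complex IV and 17 of complex V. The choice used no difference between groups or assays, but it was limited to the genes in the authors' tables, which hold 13301 genes in RNA-seq and 11369 in footprints. A further 13 rows have such symbols in the gene name list but were not members, most of them with few or no reads. All but Atp5s lay outside the authors' tables. Atp5s, with 184 RNA-seq and 229 footprint reads, was in both without a chosen symbol there. That all 79 members passed the filter on low counts in RNA-seq follows in part from the limit to those tables. In footprints 78 passed it, and the ATP synthase gene Atp5g2 was left out.

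The study compared wild-type mice (WT) with miR-181a/b-1 knockout mice (KO), which lack a pair of clustered microRNA genes, both aged 6 weeks, with 3 WT and 3 KO libraries in each of 2 assays and 12 libraries in all. No treatment differed between the groups, and all cells were placed in cycloheximide, which stalls ribosomes. RNA-seq measured the transcripts, and ribosome footprinting sequenced the mRNA fragments that ribosomes protect from nuclease. The labels do not name the strain, the sex or the way the genes were deleted, so it is not known here whether the loss was limited to T cells.

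The microRNAs removed in the KO mice are shown because they define the comparison. Their mature 5p sequences from RefSeq share the seed, bases 2 to 8, which is in capitals.
mmu-miR-181a-5p: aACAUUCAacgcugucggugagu
mmu-miR-181b-5p: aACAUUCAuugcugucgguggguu

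The respiratory chain passes electrons from NADH (complex I) and succinate (complex II) through ubiquinone to complex III, then by cytochrome c to complex IV, which reduces oxygen. Complexes I, III and IV pump protons across the inner mitochondrial membrane, and complex V, the ATP synthase, uses the returning protons to make ATP. Most subunits are encoded in the nucleus, made on cytosolic ribosomes and imported, and they assemble with a few core subunits that are made inside the mitochondrion. Dividing thymocytes draw on both glycolysis and respiration for ATP and for biosynthetic precursors.

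Reads in genes numbered 4479182 (KO replicate 2) to 8180286 (KO replicate 3) per RNA-seq library. In footprints they numbered 4069968 (KO replicate 3) to 17859770 (WT replicate 2). The row of the deleted Mir181a-1 had 2898, 2370 and 1535 footprint reads in WT replicates 1 to 3 and 5, 16 and 4 in KO. In RNA-seq it had 25, 25 and 7 reads in WT and 16, 10 and 41 in KO, so that row checks the footprint labels only, and directions in RNA-seq are those of the libraries as labelled. The 10 thymocyte markers summed to 11833 to 13896 CPM (reads relative to the library total, scaled by TMM within each assay) in RNA-seq and 22340 to 23824 in footprints, against at most 9.08 for the 3 muscle markers in any library. The deposited counts are named adjusted by the authors, and same-numbered WT and KO libraries mirrored each other. Over the members, the deviations of such a pair from their group means correlated at -0.99 in each of the 3 RNA-seq pairs and at -0.98, -0.99 and -0.98 in footprints. SDs and standard errors here may therefore not measure the spread between mice, so each call is also given from a fit that has the replicate number as a block.

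In WT thymocytes the respiratory chain genes had more footprints per RNA-seq read than most genes. The footprint-to-RNA ratio, a log2 difference between the assays set to the typical gene by TMM over the 6 WT libraries, was called higher than 0 for 70 of the 79 members and lower for 7 (edgeR quasi-likelihood test, FDR under 0.05), and with the replicate block the counts were again 70 and 7. Of the 7, Atp5g1 and Atp5g2 passed the filter on low counts through RNA-seq alone, the assay in which they were higher, so their calls follow from the filter and are not support; the other 77 members were above it in all WT libraries of both assays. Of all 14385 genes tested, 41.9% were called higher and 43.4% lower, and of 11202 genes with a RefSeq protein-coding symbol 48% were called higher and 34.9% lower. The members' median ratio was 1.90, or 3.72-fold (middle 50% 2.44-fold to 5.06-fold), beside a median of -0.02 over all genes and 0.22 over the protein-coding ones. A ratio compares a gene's share of footprint reads with its share of RNA-seq reads, and reads in no annotated feature made up 50.9% to 57.1% of RNA-seq libraries and 5.32% to 6.39% of footprint libraries; the part of that difference in the ratios was not tested. The members took 0.321% to 0.353% of the gene reads in WT RNA-seq and 1.06% to 1.07% in WT footprints.

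**Figure D1:**
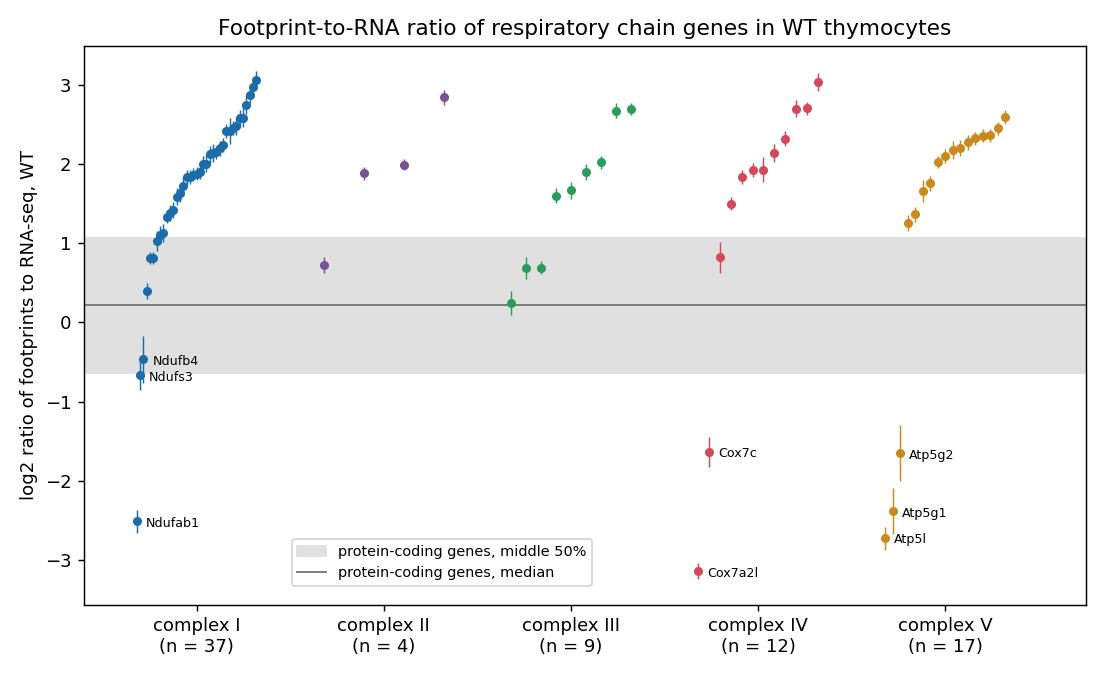
Log2 ratio of footprints to RNA-seq in WT thymocytes for each of the 79 members, grouped by complex (points, edgeR estimates; bars, SE), with the median and the middle 50% of protein-coding genes in grey. Most members of every complex lie above the grey band, and Ndufab1, Cox7c, Cox7a2l, Atp5g1, Atp5g2 and Atp5l lie below it, with Ndufs3 at its lower edge.

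The high ratio held in each complex. Its median was 1.88 in complex I, 1.94 in complex II, 1.67 in complex III, 1.93 in complex IV and 2.10 in complex V. In complex I the highest ratios were those of Ndufa5, an accessory subunit, at 3.06 (SE 0.10), and Ndufa1, a small membrane subunit, at 2.97 (SE 0.11). Ndufa5 had 11.4, 11.7 and 9.23 CPM in the 3 WT RNA-seq libraries and 72.8, 75.4 and 74.4 CPM in the 3 WT footprint libraries. Every footprint value of Ndufa5 was thus above every RNA-seq value on these separately scaled CPM.

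All 4 genes of complex II, succinate dehydrogenase, were called higher in footprints. Sdhb, the iron-sulfur subunit, led with a ratio of 2.84 (SE 0.09). Sdha, the flavoprotein that oxidises succinate, had 1.99 (SE 0.07), and the membrane anchors Sdhc and Sdhd had 1.88 (SE 0.09) and 0.73 (SE 0.10). Sdhb lay above the other 3 and Sdhd below them by many times their SEs, while Sdha and Sdhc did not differ beyond theirs combined.

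In complex III the ratio was highest for Uqcrc2, a core protein, at 2.69 (SE 0.08), and for Uqcrq, a small subunit next to the ubiquinone site, at 2.67 (SE 0.09). The lowest were Uqcrb at 0.69 (SE 0.14) and Uqcr11 at 0.25 (SE 0.15, FDR 0.142), and Uqcr11 was not called. For Uqcr11 the sign turned to -0.07 when libraries were scaled by total reads alone. Cox8a, at 3.03 (SE 0.11), and Cox7a2, at 2.70 (SE 0.09), led complex IV, the terminal oxidase. In complex V the leaders were Atp5j, coupling factor 6 of the stalk, at 2.60 (SE 0.09), and Atp5b, the catalytic beta subunit, at 2.45 (SE 0.08).

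A small group of members went the other way. Cox7a2l, a relative of Cox7a2 known for its part in joining complexes III and IV into supercomplexes, had the lowest ratio, -3.14 (SE 0.10). Its RNA-seq values were 76, 69 and 69 CPM in WT and its footprint values 6.7, 6.21 and 7.11 CPM, so the assays did not overlap. Atp5l, subunit g of the ATP synthase, had 44, 38.1 and 35.5 CPM in WT RNA-seq and 5.9, 4.25 and 4.26 CPM in WT footprints, a ratio of -2.72 (SE 0.15). Ndufab1, the mitochondrial acyl carrier protein that is also a complex I subunit, had 33.7, 35 and 33.6 CPM against 3.66, 5.43 and 5.88 CPM, a ratio of -2.51 (SE 0.15). In all 3 genes every WT footprint value lay below every WT RNA-seq value.

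Cox7c, a small complex IV subunit, had a ratio of -1.64 (SE 0.19), and Ndufs3, a core subunit of the complex I matrix arm, -0.67 (SE 0.19). In the KO libraries the Ndufs3 ratio was 0.05. Ndufb4 had -0.47 (SE 0.30, FDR 0.157) and was not called. Reads with several alignments were set apart before counting (13.1% to 20.5% of counted reads in RNA-seq and 17.7% to 18.6% in footprints). Genes with near-identical copies can lose reads that way, so the values of such genes are uncertain; how far this lowers the ratios of these members was not tested.

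The 3 genes for the c subunit of the ATP synthase had ratios on both sides of 0. They encode the same mature protein behind different import sequences. Atp5g3 had 103, 116 and 108 CPM in WT RNA-seq and 438, 448 and 462 CPM in WT footprints, a ratio of 2.32 (SE 0.08). Atp5g1 had 6.04, 3.21 and 4.41 CPM against 0.687, 0.559 and 0.948 CPM, a ratio of -2.38 (SE 0.29). Atp5g2 had 1.59, 2.09 and 2.34 CPM against 0.343, 0.783 and 0.379 CPM, a ratio of -1.65 (SE 0.35). Atp5g3 was called higher in footprints. Atp5g1 and Atp5g2 lay under the filter of 1.13 CPM, before TMM scaling, in all 3 WT footprint libraries, so their ratios are given as values only.

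**Figure D2:**
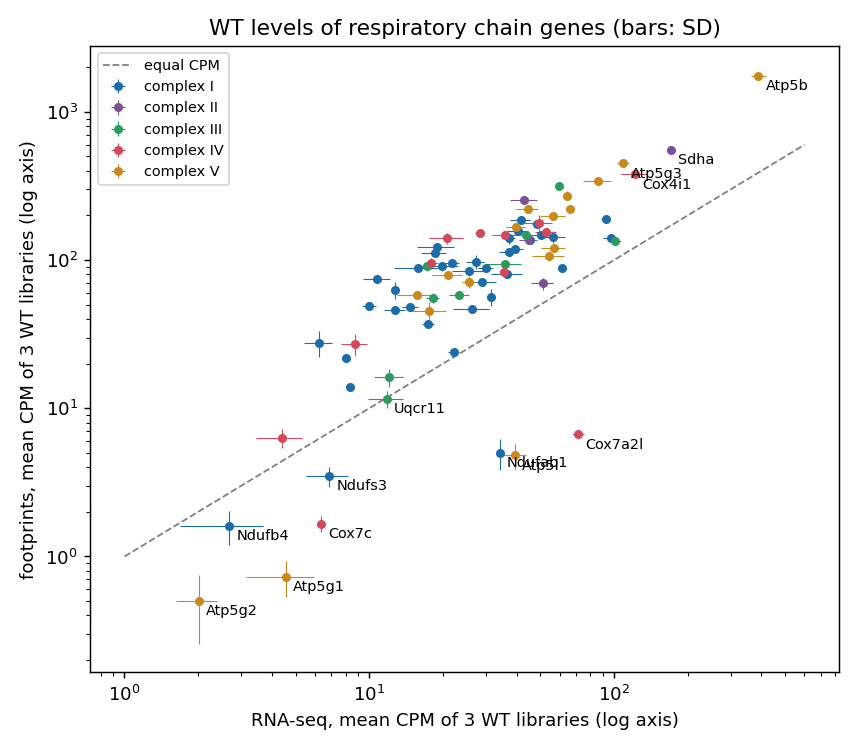
Mean CPM of the 3 WT RNA-seq libraries (x, log axis) against mean CPM of the 3 WT footprint libraries (y, log axis) for the 79 members (bars, SD; dashed line, equal CPM). Most members lie above the line, and the labelled genes to its right include Cox7a2l, Ndufab1, Atp5l, Cox7c, Atp5g1 and Atp5g2; CPM is not corrected for gene length, so heights of different genes are not comparable levels.

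Tissue-specific isoforms of complex IV were at or near the floor of counting. Over the 6 libraries of each assay, Cox4i2, the lung isoform of Cox4, had 2 RNA-seq and 27 footprint reads, Cox6a2, the heart and muscle isoform, 5 and 70, and Cox7a1, also of heart and muscle, 9 and 123. Ndufa4l2 had 1 and 4 reads. The ubiquitous forms were far better covered: Cox4i1 had 111, 115 and 138 CPM in WT RNA-seq and 368, 374 and 395 CPM in WT footprints. Cox6b2, the testis form of Cox6b, was a member and stayed low, at 3.5, 4.32 and 5.37 CPM in WT RNA-seq and 6.98, 6.71 and 5.31 CPM in WT footprints, beside 47.9, 52 and 58.1 CPM and 151, 161 and 152 CPM for Cox6b1. Cox6a1 and Cox8a had ratios of 2.14 (SE 0.11) and 3.03 (SE 0.11), and Ndufa4 had 2.20 (SE 0.09). Complexes were assigned by symbol alone, so Ndufa4 is counted under complex I here and not under complex IV.

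Genes that work with the chain were read from lists. Of 13 citrate cycle genes tested, 12 were called higher in WT footprints than in RNA-seq and none lower, with a median ratio of 1.55. Of 46 assembly factors tested, which build the complexes but do not stay in them, 29 were called higher and 9 lower, with a median of 0.63. Of 10 transcriptional regulators tested, 4 were called higher and 4 lower, with a median of 0.13. The subunits' median of 1.90 was the highest of these lists, as a description with no test between them. Of the 13 subunits encoded in the mitochondrion itself, 7 were tested, of which 4 were called higher and none lower.

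In the KO libraries the ratios had the same shape: 69 members were called higher and 7 lower. Across the 79 members the WT and KO ratios correlated at r = 0.98 (rho 0.96), and 78 had the same sign. Genes are not independent replicates, and the mirrored libraries keep the KO ratios from being an independent repeat.

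Promoter letters were compared as a further shared feature. Of the 79 members, 65 had an entry in the RefSeq promoter table (GRCm38.p6, 250 bases before to 50 after the start, first entry per gene, both strands searched), and 27025 promoters were searched in all. GCGCATG, the core of the motif bound by nuclear respiratory factor 1, occurred in 13 of the 65 (20%) and in 4.04% of all promoters. CCGGAAG, the core bound by ETS factors such as GABP, occurred in 16 (24.6%, against 9.12%). AAGATGG, the core bound by YY1, occurred in 9 (13.8%, against 6.48%), and TATAAA in 6 (9.23%, against 14.2%). Among the 17491 protein-coding promoters the shares were 4.88%, 11.9%, 6.37% and 13.3% in the same order. A match describes the letters and is not a bound site.

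Windows of 30 bases around the match of 5 members are shown because they let a reader see the shared core, which is in capitals on either strand and overlaps itself in the first 4. They are read 5′ to 3′ on the gene's strand, from chr15:102671070-102671099 (minus strand), chr5:108434430-108434459 (minus), chr5:115349101-115349130 (minus), chr17:56717692-56717721 (plus) and chr4:140961208-140961237 (plus) of GRCm38.p6, in the order printed.
Atp5g2: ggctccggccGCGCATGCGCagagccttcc
Atp5k: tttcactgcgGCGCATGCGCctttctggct
Cox6a1: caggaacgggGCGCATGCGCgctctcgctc
Ndufa11: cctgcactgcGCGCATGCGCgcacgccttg
Sdhb: gcccagtgggCATGCGCcctacgggccgct
Of these 5 genes, Atp5k, Cox6a1, Ndufa11 and Sdhb had footprint-to-RNA ratios of 1.66, 2.14, 2.58 and 2.84, and Atp5g2 had -1.65.

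Few members differed in RNA between KO and WT. In RNA-seq, 2 of 79 were called, both lower in KO, where 6.91% of 13652 genes were called (3.43% lower). With the replicate block none of the members was called (background 0.806%), nor with DESeq2 (3.54%). None was called after any of the 6 libraries was left out (1.55% to 2.32%). At an unadjusted p under 0.05 there were 14 by edgeR without the block (17.7%, beside 23.8% of all genes). With the block there were 3 (3.80%, beside 9.71%). The median log2 fold change was -0.08, beside -0.00053 over all genes, with 56 members below 0 and 23 above. For all 79 the estimated change was under 1.5-fold. Summed, the members took 0.290% to 0.318% of the gene reads in KO RNA-seq, below the 0.321% to 0.353% in WT. In footprints they took 1.03% to 1.04% in KO, below the 1.06% to 1.07% in WT. These shares were not tested. In these whole-thymocyte samples, fewer cells of a type and less RNA per cell cannot be told apart.

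Ndufa9 and Ndufa13, the called genes, are accessory subunits of complex I. Ndufa9 had 47.5, 46.7 and 51 CPM in WT RNA-seq and 37.7, 38.8 and 34.9 CPM in KO, a log2 change of -0.39 (SE 0.07, edgeR FDR 0.0298, with the block 0.410). Ndufa13 had 24.6, 28 and 29.1 CPM in WT and 21.9, 18.9 and 18.3 CPM in KO, a log2 change of -0.46 (SE 0.10, edgeR FDR 0.0497, with the block 0.406). The groups did not overlap in either gene. In footprints Ndufa9 had a log2 change of -0.08 (SE 0.03, FDR 0.125) and Ndufa13 one of -0.17 (SE 0.11, FDR 0.346), neither called. RefSeq places Tssk6 over Ndufa13 and 1700018A23Rik over Ndufa9; Tssk6 had 11 RNA-seq reads over the 6 libraries.

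In footprints 13 of 78 members were called, 5 higher and 8 lower in KO, a share of 16.7% where 17.6% of 13509 genes were called (9.25% higher, 8.34% lower). The members' share was thus near that of all genes. Of the 5 called higher, Atp5g1 passed the filter on low counts through the KO libraries, so its call is not support. With the replicate block 1 member was called (background 3.02%), with DESeq2 4, and after leaving out 1 of the 6 libraries between 2 and 5. Unadjusted p was under 0.05 for 26 members (33.3%), beside 33.1% of all genes. The median log2 fold change was -0.05, beside -0.01 over all genes, with 49 below 0 and 29 above, and for 76 of 78 the estimate was under 1.5-fold.

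Uqcrq, the small complex III subunit, was the member called higher in footprints with the block too. Its footprint values were 88.4, 85.8 and 98.3 CPM in WT replicates 1 to 3 and 139, 143 and 123 CPM in KO. Every KO library lay above every WT library. The log2 fold change was 0.59 (SE 0.07, edgeR FDR 0.00449, with the block 0.0139), and the call held in all 11 alternatives, with FDR at most 0.0214. In RNA-seq Uqcrq had 16.2, 17 and 18.6 CPM in WT and 18.3, 17.5 and 15.8 CPM in KO, which overlapped, with a log2 change of -0.01 (SE 0.09). The change in translation, meaning the footprint change beyond the RNA change, was 0.59 with an FDR of 0.0946, so it was not called. The gene Gdf9 overlaps Uqcrq in RefSeq and had 34 footprint reads over the 6 libraries. Of these, 11, 13 and 5 were in WT replicates 1 to 3 and 1, 2 and 2 in KO, the opposite direction to Uqcrq. The part of this overlap in the Uqcrq values was not tested. In the authors' deposited table Uqcrq had a footprint log2 fold change of 0.55 with an adjusted p of 1.1e-08.

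**Figure D3:**
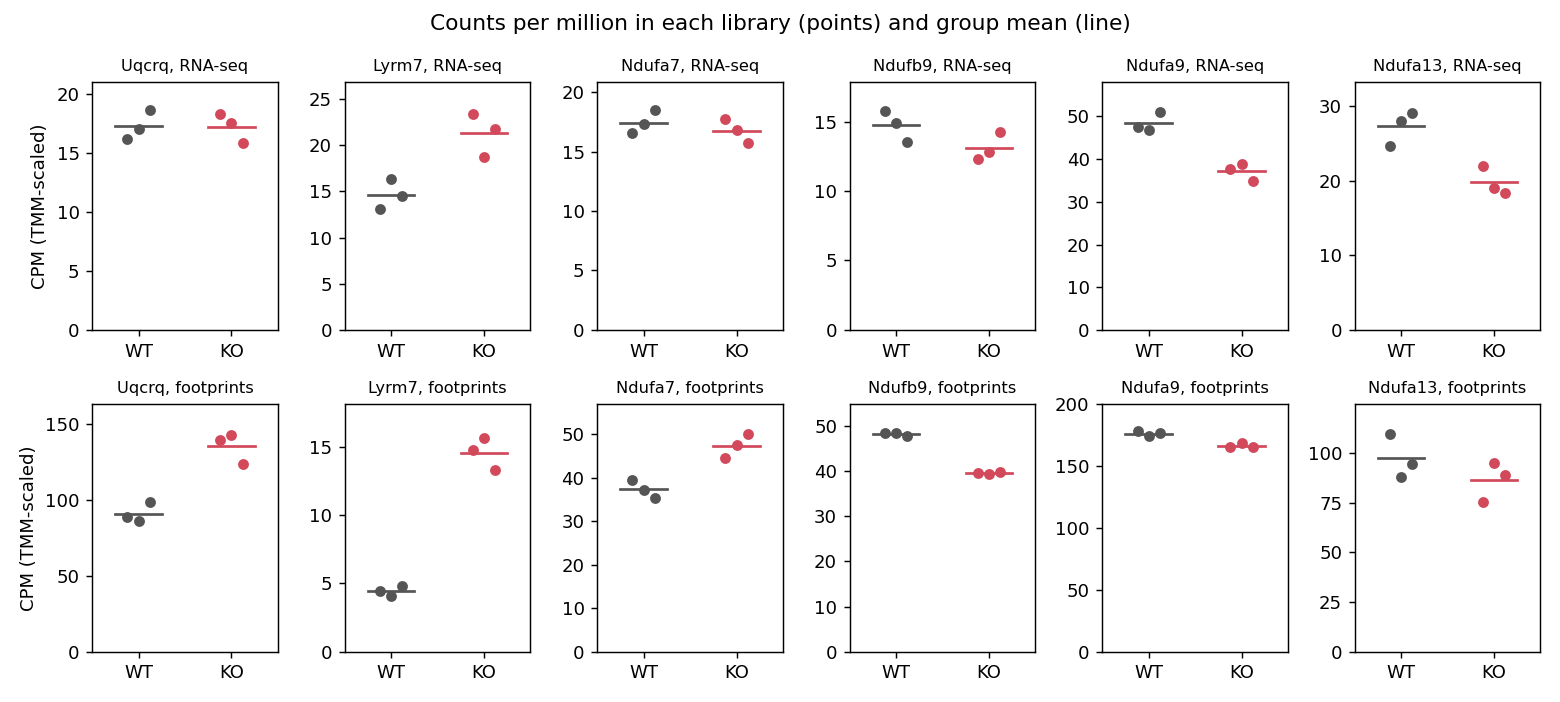
CPM in each WT (grey) and KO (red) library for Uqcrq, the complex III assembly factor Lyrm7 and 4 called complex I genes, in RNA-seq (top) and footprints (bottom); points are libraries, lines are group means, and axes start at 0. The 3 KO footprint values of Uqcrq (123 to 143 CPM) and of Lyrm7 (13.3 to 15.6 CPM) lie above all WT values, while Uqcrq overlaps between genotypes in RNA-seq.

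The other calls in complex I were small. Ndufa7, an accessory subunit, had 39.5, 37.1 and 35.3 CPM in WT footprints and 44.5, 47.6 and 50.1 CPM in KO, a log2 change of 0.33 (SE 0.06, FDR 0.0165, with the block 0.150). Ndufb9 had 48.4, 48.5 and 47.9 CPM in WT and 39.5, 39.3 and 39.8 CPM in KO, a log2 change of -0.29 (SE 0.04, FDR 0.00436, with the block 0.176). Both separated the groups fully. Ndufc1 was called higher by 0.21, and Ndufb2 fell by 0.29, Ndufa8 by 0.16, Ndufv1 by 0.15 and Ndufv2 by 0.14 on the log2 scale. Ndufv1 carries the NADH-oxidising site, and Ndufv2 is a core subunit of the same matrix arm. With the block none of these 7 was called, their FDR running from 0.150 to 0.458.

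In complex V 4 members were called, none of them with the block. Atp5md, a small subunit linked to dimers of the synthase, had 54.7, 61.1 and 59.1 CPM in WT footprints and 49.8, 44.6 and 45.9 CPM in KO, a log2 change of -0.32 (SE 0.06, FDR 0.0203, with the block 0.154). Atp5o, the stalk subunit that confers oligomycin sensitivity, fell by 0.14, and Atp5j was called higher by 0.12. Atp5g1 was called higher by 1.07 (SE 0.26, FDR 0.0357, with the block 0.348), but from 0.687, 0.559 and 0.948 CPM in WT to 1.39, 1.69 and 0.982 CPM in KO. Those values lie close to the filter on low counts, which Atp5g1 passed through the KO footprint libraries, the group in which it was higher. Its call therefore follows in part from the filter and is not support, and it was lost in 8 of 11 alternatives. No member of complexes II and IV was called in either assay by edgeR without the block.

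The authors' deposited table gave an adjusted p for 78 members in RNA-seq and 77 in footprints. None was under 0.05 in RNA-seq, and 4 were in footprints: Uqcrq and Ndufa7 higher, Atp5md and Ndufb9 lower. These 4 are also among the 13 called here.

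The groups were also compared library by library. WT and KO did not overlap in RNA-seq for 9 members higher and 9 lower (background 15.5% and 15.4% of genes), and in footprints for 9 higher and 21 lower (18.5% and 19.6%). In both assays 5 members were lower without overlap, among them Ndufa1, Ndufa9, Sdha and Uqcrc1, and 2 were higher, Ndufc1 and Atp5c1. The share of all genes that separate in both assays was not computed, so these counts are a description only. Cox7c went opposite ways, from 6.36, 6.14 and 6.61 CPM in WT to 8.78, 9.23 and 8.48 CPM in KO in RNA-seq, and from 1.49, 1.9 and 1.61 CPM to 1.39, 0.91 and 1.47 CPM in footprints; neither change was called (FDR 0.0676 and 0.176). Across the 78 members measured in both assays, the KO effects in RNA-seq and footprints correlated at r = -0.04 (rho 0.04) with 44 of the same sign, beside r = 0.67 (rho 0.47) over 11854 genes. Nearly all members changed little, and genes are not independent replicates.

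**Figure D4:**
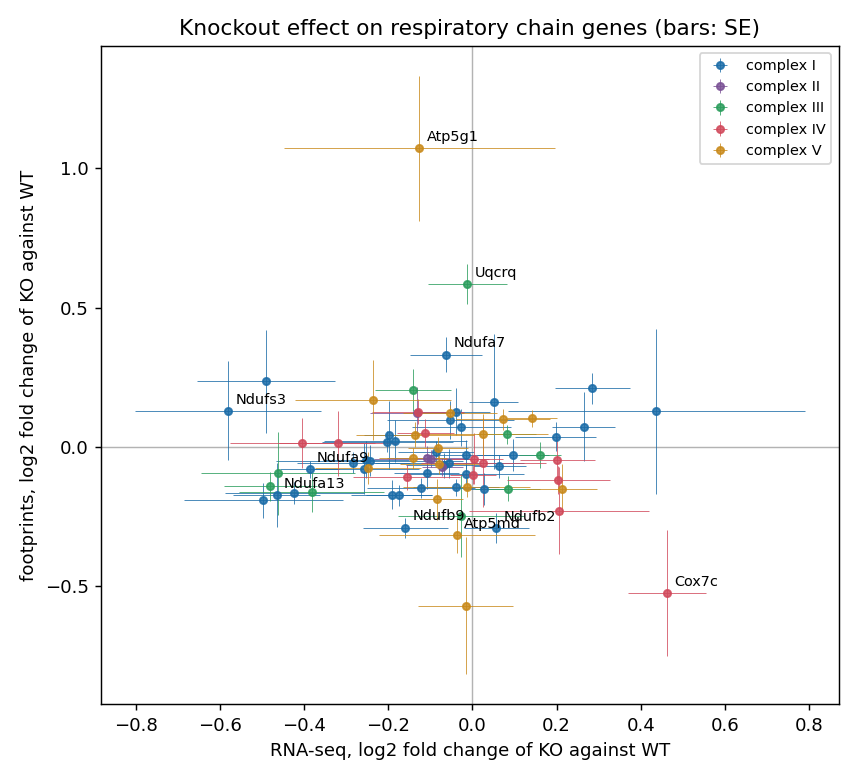
Log2 fold change of KO against WT in RNA-seq (x) and in footprints (y) for the 78 members tested in both assays, coloured by complex (bars, SE). Most points lie within 0.5 of 0 on both axes, and Uqcrq (0.59) and the low-count Atp5g1 (1.07) lie highest in footprints.

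The interaction of genotype and assay, which tests a change in translation, called none of 78 members with edgeR (background 0.211% of 11854 genes) and none of the 53 that DESeq2 gave an adjusted p. Unadjusted p was under 0.05 for 17 of the members by edgeR (21.8%), beside 14.0% of all genes. Cox7c had the lowest value, -0.98 (FDR 0.134), and Atp5g1 the largest positive value, 1.19 (FDR 0.28), neither called. On simulated counts the same fit found 63% of genes changed by 1.5-fold and 94% of those changed by 2-fold. The simulation gave all genes the same dispersion, changed only genes above a minimum of expected reads, and left out the mirroring. These rates therefore need not hold for the members, least of all for those with few reads.

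Among the genes that assemble or serve the chain, Lyrm7 stood apart. Lyrm7 encodes the factor that holds the Rieske iron-sulfur protein Uqcrfs1 before it enters complex III, the complex of Uqcrq. Its footprints were 4.41, 4.08 and 4.83 CPM in WT and 14.8, 15.6 and 13.3 CPM in KO, a log2 change of 1.75 (SE 0.09, edgeR FDR 0.000255, with the block 0.000868). Its RNA-seq values were 13, 16.3 and 14.5 CPM in WT and 23.4, 18.7 and 21.7 CPM in KO, a log2 change of 0.55 (SE 0.12, FDR 0.0461, with the block 0.350). Neither assay overlapped between genotypes. The change in translation was 1.19 (FDR 0.0123), with an FDR of 0.998 when the replicate number was a block within each assay. Uqcrfs1 itself had a footprint log2 fold change of -0.15 (SE 0.04, FDR 0.0669), not called.

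Of 46 assembly factors tested in footprints, Lyrm7 was called higher and Uqcc2 (-0.35) and Cox15 (-0.27) lower. Uqcc2 serves cytochrome b of complex III and Cox15 the haem of complex IV. In RNA-seq Cox10, the partner of Cox15 in making that haem, was called lower at -0.48, and Lyrm7 higher, among 45 tested. Atpif1, the inhibitor of the ATP synthase, was called higher in footprints at 0.24. Among 13 citrate cycle genes Ogdh was called lower in footprints (-0.21), and Sucla2 (0.20) and Fh1 (0.23) higher. Among 10 regulators Polrmt, the mitochondrial RNA polymerase, was called lower in RNA-seq (-0.52) and Pprc1, a coactivator, lower in footprints (-0.24). These calls stand beside 17.6% of all genes called in footprints and 6.91% in RNA-seq, so they are named as a description and not as a result about the lists. Of all these related genes, the block kept the footprint call of Lyrm7 alone. None of the 7 mitochondrially encoded subunits tested was called in either assay.

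Some cell type markers moved between the same libraries. Cd4 had a footprint log2 fold change of 0.57 (FDR 0.00335, with the block 0.0121), while Rag1 (-0.30), Ptcra (-0.37) and Lck (-0.12) were called lower in footprints without the block only, and the sums over the 10 thymocyte markers overlapped between genotypes in both assays. The 5 thymic epithelium markers summed to 18.9 to 22.2 CPM in WT and 14.2 to 17.3 CPM in KO in RNA-seq, and to 75.5 to 82.3 CPM and 59.8 to 70.5 CPM in footprints. The 3 endothelium markers summed to 169 to 176 CPM in WT and 203 to 213 CPM in KO in RNA-seq, and to 144 to 148 CPM and 154 to 159 CPM in footprints. Only 1 of the 2 tested in RNA-seq and 1 of the 3 tested in footprints was called higher, neither with the block. Their median log2 change in footprints was 0.02, so the summed rise is not one of all 3 markers. The 6 erythroid markers summed to 76.0 to 90.9 CPM in WT and 46.6 to 58.4 CPM in KO in RNA-seq and overlapped in footprints. The 3 fibroblast markers summed to 28.1 to 29.8 CPM in WT and 25.1 to 26.6 CPM in KO in RNA-seq and overlapped in footprints, and the B cell and myeloid sums overlapped in both assays. The part of these shifts in the members' values was not tested.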

How the data were processed

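Thymocytes of 3 WT and 3 KO mice gave 12 libraries in 4 groups, grouped by the assay, genotype and number in their titles; which RNA-seq and footprint libraries share a mouse is not stated. The authors deposited read counts per Ensembl gene as whole numbers, under the name adjusted; what was adjusted is not given in the sources used here, nor are the genome build, annotation and strand setting. The submitters' processing notes name FastQC, Bowtie2 2.5.1, STAR 2.7.10a, HTSeq 2.0.3 and DESeq2 1.40.2, without their roles. The authors' deposited comparison tables hold log2 fold changes and adjusted p-values, per the file headers; their 12 columns of per-library values were not used. The 5 rows that name no gene stayed out of library sizes; genes held 27.0% to 28.5% of the counted reads in RNA-seq and 72.3% to 73.1% in footprints.

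Counts were fitted over all genes with edgeR 4.0.16 in R 4.3.3: TMM, filterByExpr with a minimum count of 10, the quasi-likelihood test and Benjamini-Hochberg adjustment (FDR). A gene with FDR under 0.05 was called. CPM are TMM-scaled within an assay. SE is the absolute log2 change over the square root of the F statistic. DESeq2 1.42.0 was an alternative. On simulated counts with 200 changed genes, 73% of 1.5-fold and 99% of 2-fold changes were recovered in RNA-seq with 11 false calls, 95% and 100% in footprints with 9, and 87% and 100% for footprints against RNA with 9; the mirrored libraries were not simulated. Over all genes, the deviations of same-numbered WT and KO libraries from their group means were correlated. Their r was -0.94, -0.95 and -0.95 in RNA-seq and -0.94, -0.95 and -0.92 in footprints. What the replicate number stands for is not stated, and the mirroring does not settle whether to block by it. The reported fit has no block, so its SEs may be too small. The members' median SE was 0.10 in RNA-seq and 0.06 in footprints, and with the block 0.18 and 0.10.

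Members, gene lists and tests were chosen with earlier results of these data known. Named members are those called between KO and WT in RNA-seq, in footprints or for the change in translation. To these were added, per complex, those with the highest and lowest footprint-to-RNA ratios, isoform sets, the Sdh genes and members under the filter. From related lists, genes called between KO and WT are named. Others (Ndufb4, Uqcrfs1, Ndufa1 in both assays, Sdha, Uqcrc1 and Atp5c1 among non-overlapping members, and genes named by promoter) were chosen after their values were seen. Levels per codon, and so the order of levels between genes, were not analysed here, since no lengths were used. The values of 1 member are not reported here, though it stays in the counts.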

Additional observations from a re-analysis of the deposited data

Results flagged for a closer look

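Lyrm7 differed between the assays in its response to the knockout: the change in translation was 1.19 on the log2 scale (edgeR interaction FDR 0.0123), higher in KO in 3 of 3 libraries of each assay. Taking RNA-seq and footprint libraries of 1 genotype and number as 1 mouse gave an FDR of 0.0882.

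Reads above the limit of 3 counts that a count of 0 allows were found in pseudogene-named rows that the choice of members left out. Ndufb1-ps had 486 RNA-seq reads and 6874 footprint reads, of which 1743, 1540 and 997 were in WT and 850, 1405 and 339 in KO footprint libraries. RefSeq lists Ndufb1-ps as another name of Ndufb1, a protein-coding complex I gene, so the choice by name leaves out a row that was well covered in footprints. Atp5c1-ps had 116 footprint reads over the 6 libraries, Atp5k-ps2 26, Uqcrh-ps2 20 and Atp5l-ps2 4. For Uqcrh-ps1 the higher count was 6, in RNA-seq.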

How the results depend on the processing

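Calls in WT footprints against RNA-seq were stable: 77 members in the reported fit and 77 to 78 after leaving out 1 WT library, though scaling by total reads alone moved the median of all genes by -0.32 and turned Uqcr11 to -0.068, and no filter on low counts moved it by 0.17; in the KO libraries the Ndufs3 ratio was 0.050. The members' median ratio stayed between 1.58 and 1.96. For KO against WT in RNA-seq, the 2 members called became 0 with DESeq2 (3.54% of all genes called) and 0 with the replicate block (0.806%). They became 5 in a joint fit of 12 libraries (13.1%) and 4 at FDR under 0.1 (12.8%). None was called when any of the 6 libraries was left out (1.55% to 2.32%). In footprints the 13 became 6 with no filter on low counts, 4 with DESeq2, 1 with the replicate block, 5 in the joint fit, and 2 to 5 with 1 library left out: 5 without WT or KO replicate 1, 2 without WT or KO replicate 2 and 3 without WT or KO replicate 3. For the change in translation, the count of 0 became 1, Uqcrq, with no filter on low counts (0.814% of all genes called) and at FDR under 0.1 (1.11%). It stayed 0 with a replicate block (0.0169% within each assay and 0.143% by mouse). The cause was not tested. RNA-seq depth, at most 8180286 reads in genes, limits the low members, such as Atp5g2 at 2.01 CPM in WT. The planned levels per codon were not run.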

Other observations

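Cox8b, the heart, muscle and brown fat form of Cox8, had 4 RNA-seq reads in total, all in WT replicate 2, and 18 of its 21 footprint reads were also in WT replicate 2. Ucp1, the uncoupling protein of brown fat, had 8 of its 10 RNA-seq reads and 8 of its 18 footprint reads in WT replicate 2. Both genes were chosen after their values were seen, and the counts are adjusted ones.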
